A study of Homo sapiens with 18 samples.

Results

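The interleukin 1 family and its receptors were followed across podocytes on smooth and fractal surfaces, without inflammation, with inflammatory cytokines and with macrophages. The genes are 8 of the 58735 in the count table, taken by symbol: the ligands IL1A, IL1B, IL33 and IL18, the antagonist IL1RN, and the receptor chains IL1R1, IL1RAP and IL1RL1. All groups share a single human line, PODO/TERT256, which carries telomerase so that it keeps dividing. Podocytes wrap the capillaries of the kidney's filter with foot processes. Hemispheres in 3D with a fractal or a smooth surface carried the cells, and each surface was studied with THP-1-derived macrophages, with the cytokines TNF-α and IL-6, and as an untreated control. The 6 groups are therefore fractal THP-1, smooth THP-1, fractal cytokines, smooth cytokines, fractal control and smooth control, with 3 libraries each. THP-1 is a human monocytic leukaemia line. The labels give no dose, no exposure time and no step that separates macrophages from podocytes before lysis. Nor do they tell whether replicate libraries were grown as separate cultures, and p-values here measure only the spread among these libraries, which may be technical.

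Interleukin 1α and interleukin 1β both bind the receptor encoded by IL1R1, which then recruits the accessory chain encoded by IL1RAP and signals through MYD88 and the IRAK kinases to NF-κB. Interleukin 1α acts as an alarm signal when cells are damaged, whereas interleukin 1β is made as an inactive precursor that is cut by caspase 1 in the inflammasome. IL1RN encodes the receptor antagonist, which occupies the same receptor without signalling. Interleukin 33 is stored in the nucleus of barrier and stromal cells and binds the receptor ST2, encoded by IL1RL1, which also uses IL1RAP. Interleukin 18 has its own receptor, encoded by IL18R1 and IL18RAP. RNA counts measure none of the cutting, storage or release of these proteins, and gene counts do not separate soluble from membrane-bound forms of the receptors.

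Library totals ran from 11488204 counts, in fractal THP-1 replicate 3, to 21264180 counts. That library also had counts on the fewest genes, 17934, against 21039 to 23157 in the others. In mitochondrial content a pair of libraries lay far from the others: fractal THP-1 replicate 3 had 0.847% of its counts on mitochondrially encoded genes and smooth cytokines replicate 2 had 8.09%, where the median of all libraries was 4.31%. Values for IL1A, IL1B, IL33, IL1R1 and IL1RAP that rest on these groups are followed by those without this pair. No count of the podocyte gene LMX1B was present in any library, and NPHS1 had 6 counts and WT1 37 counts in all, so the podocyte label rests on other genes of the podocyte list. Levels below are counts per 1e6 counts (CPM) after TMM scaling, given as mean ± SD of 3 libraries or library by library in the order of replicates 1, 2 and 3. Log2 fold changes carry their SE. Calls rest on the quasi-likelihood F-test of edgeR, adjusted by Benjamini-Hochberg over the 16129 genes tested and a threshold of 0.05.

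Of the 8 genes, 7 passed the filter on low counts. IL1RN passed through its counts in the THP-1 libraries and IL1RL1 mainly through the smooth cytokines libraries, so a difference involving those groups was built into their passing. IL1A, IL1B, IL33, IL1R1 and IL1RAP had counts in all 18 libraries.

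**Figure D1:**
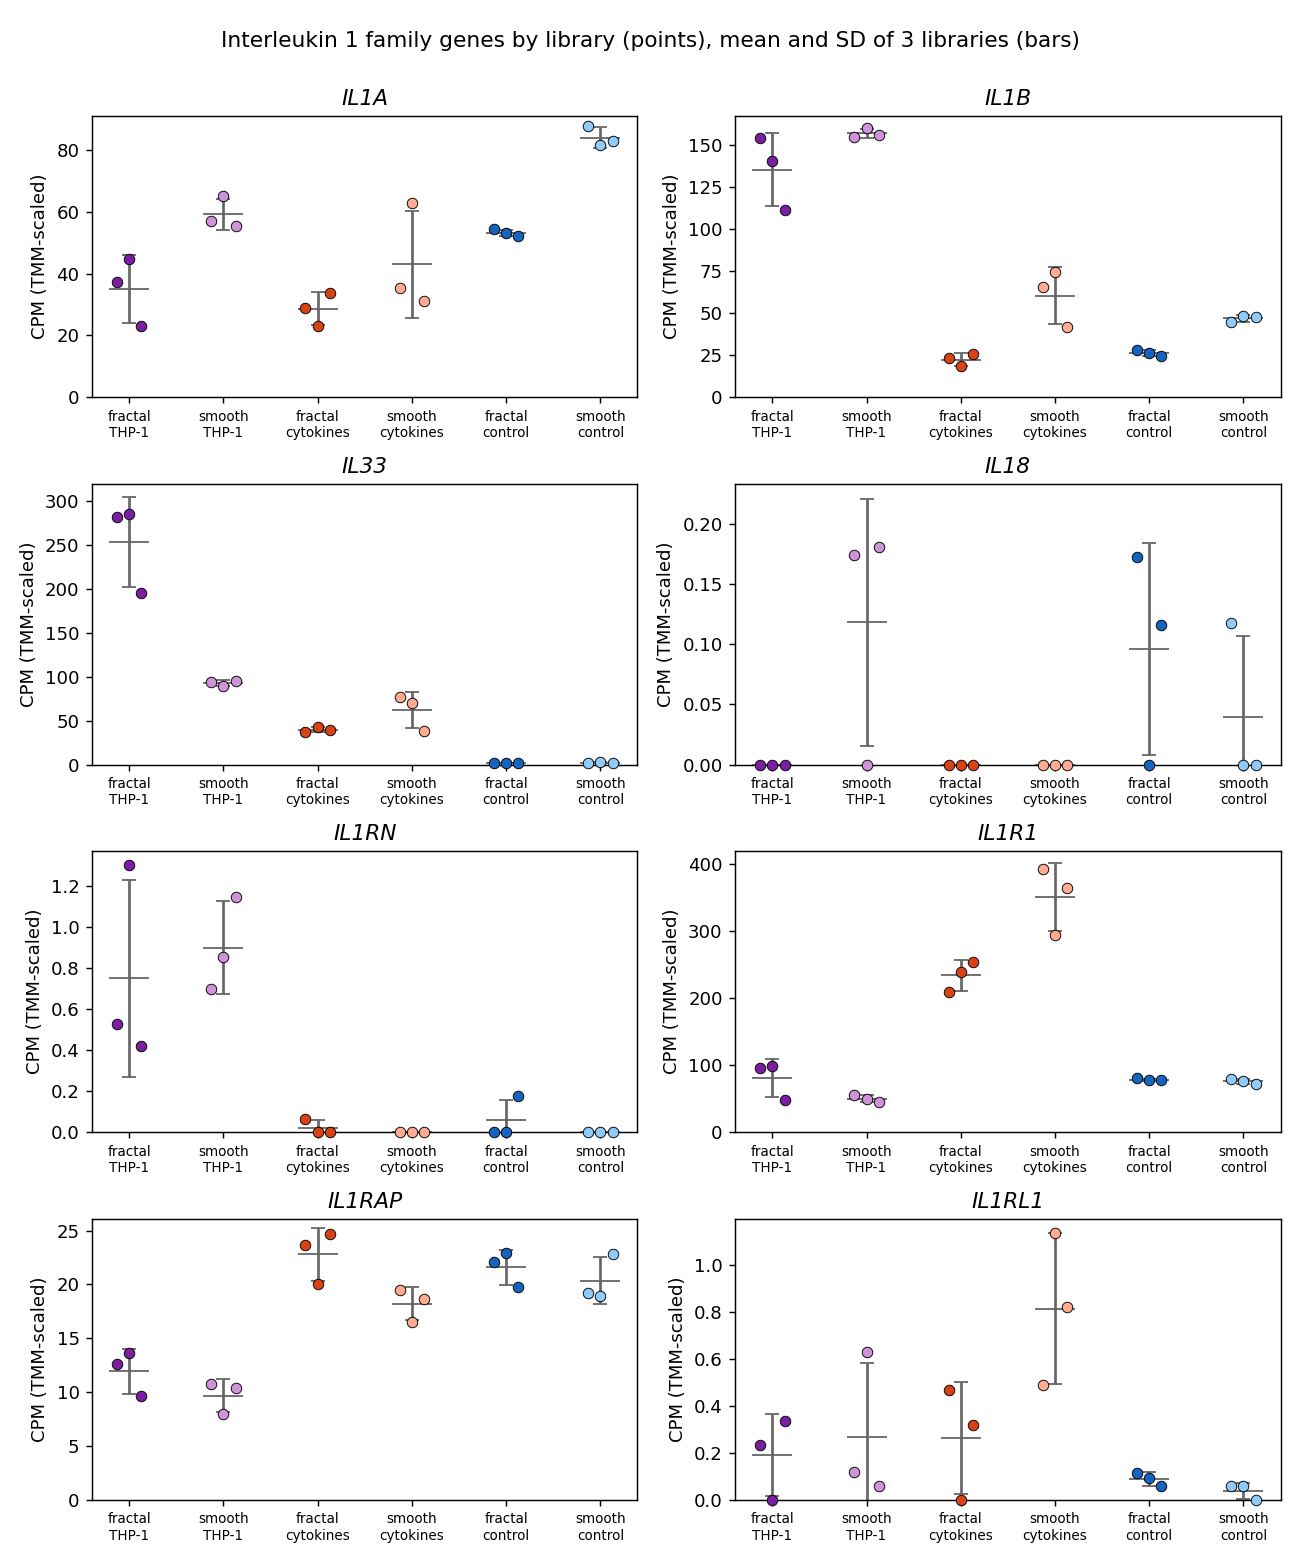
CPM of each of the 8 genes (y axes, which differ between panels and start at 0) in the 6 groups; points are libraries and grey bars the mean ± SD of 3 libraries. IL33 reached 195 to 285 CPM in the fractal THP-1 libraries and stayed under 3 CPM in every control, and IL1R1 was highest in the smooth cytokines libraries.

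IL33 rose with cytokines and with THP-1 macrophages on both surfaces, and its level with THP-1 was higher on fractal than on smooth topography. IL33 (ENSG00000137033) lies on chromosome 9, 6215786 to 6257983, plus strand, in GRCh38 (GENCODE 29). In the fractal THP-1 libraries it had 281, 285 and 195 CPM, against 93.9, 89.4 and 95.3 CPM in the smooth THP-1 libraries. With cytokines it had 37.2, 42.6 and 39.5 CPM on fractal topography, against 77.4, 69.7 and 38.4 CPM on smooth topography. In the controls it had 1.49, 1.5 and 2.27 CPM on fractal topography, against 1.76, 2.65 and 2.25 CPM on smooth topography. Every treated library was thus above every control library on its surface, and every fractal THP-1 library was above every smooth THP-1 library, whereas smooth cytokines replicate 3 lay within the range of the fractal cytokines libraries.

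The log2 fold change of IL33 with THP-1 was 7.18 ± 0.28 on fractal topography (adjusted p = 1.65e-12, and 7.33 without the pair) and 5.38 ± 0.28 on smooth topography (adjusted p = 1.45e-10). The interaction, which tests whether the response differed between surfaces, was 1.80 ± 0.45 (adjusted p = 0.0126). It missed the threshold without smooth control replicate 2 (1.63, adjusted p = 0.0586) and with no filter on low counts (1.79, adjusted p = 0.0511), and it was 1.96 ± 0.57 (adjusted p = 0.0314) without the libraries that stood apart. Among the THP-1 libraries alone, IL33 was higher on fractal than on smooth topography by 1.45 ± 0.19 (adjusted p = 4.04e-05), and by 1.60 ± 0.20 without the pair (adjusted p = 0.000103). With cytokines the log2 fold change was 4.51 ± 0.28 on fractal topography (adjusted p = 4.34e-09) and 4.79 ± 0.28 on smooth topography (adjusted p = 1.09e-09, and 4.69 without the pair). The interaction did not pass (-0.28, 95% interval -1.27 to 0.70, adjusted p = 0.88), also without the pair (-0.18, adjusted p = 0.916). Between surfaces, IL33 passed the test neither under cytokines (-0.64 ± 0.20, adjusted p = 0.0975) nor in the controls (-0.35, 95% interval -1.23 to 0.52, adjusted p = 0.826). The difference under cytokines passed without smooth cytokines replicate 3, the lowest library of its group (-0.89, adjusted p = 0.000159), but not without the pair (-0.54, adjusted p = 0.201).

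The promoter sequences of IL33, IL1B and IL1A are shown because these 3 ligands moved apart from each other between conditions. Each line holds the 250 bases before a RefSeq transcript start (GRCh38.p14), 5′ to 3′ on the gene's own strand, using the start nearest to that of the GENCODE gene. Capitals mark matches to the NF-κB consensus, to the STAT motif TTCNNNGAA or to the AP-1 motif TGANTCA, on either strand.
IL33, chr9:6215557-6215806, plus strand: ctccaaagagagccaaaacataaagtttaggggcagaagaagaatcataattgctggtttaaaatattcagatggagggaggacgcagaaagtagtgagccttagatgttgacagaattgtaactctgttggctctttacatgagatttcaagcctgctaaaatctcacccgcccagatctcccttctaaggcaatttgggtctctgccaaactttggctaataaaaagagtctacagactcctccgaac
IL1B, chr2:112836780-112837029, minus strand: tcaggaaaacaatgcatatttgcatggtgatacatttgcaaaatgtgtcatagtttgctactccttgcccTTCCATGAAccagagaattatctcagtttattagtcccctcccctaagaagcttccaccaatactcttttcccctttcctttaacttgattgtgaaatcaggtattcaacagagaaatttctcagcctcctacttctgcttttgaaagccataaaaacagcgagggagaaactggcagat
IL1A, chr2:112784494-112784743, minus strand: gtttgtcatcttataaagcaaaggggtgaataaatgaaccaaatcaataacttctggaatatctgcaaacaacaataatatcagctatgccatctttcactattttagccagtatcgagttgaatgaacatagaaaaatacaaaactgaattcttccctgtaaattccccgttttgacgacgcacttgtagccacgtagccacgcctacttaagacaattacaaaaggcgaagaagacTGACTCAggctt

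IL1B held 1 STAT match, from 180 to 172 bases before the start, and IL1A held 1 AP-1 match, from 12 to 6 bases before it. No letters of the searched motifs stood in the IL33 window. Over 34943 RefSeq windows of this length, 9.95% held the NF-κB consensus, 6.56% the STAT motif and 6.59% the AP-1 motif. Among 15 windows of the 7 members with an entry, none held the NF-κB consensus. A match is a string of letters and not a bound site. IL18 was not among the entries.

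IL1B rose with THP-1 macrophages on both surfaces and was lower on fractal than on smooth topography in the controls and under cytokines. IL1B (ENSG00000125538) lies on chromosome 2, 112829751 to 112836903, minus strand. It had 154, 141 and 112 CPM in the fractal THP-1 libraries, against 155, 160 and 156 CPM in the smooth THP-1 libraries. With cytokines it had 23.0, 18.2 and 25.6 CPM on fractal topography, against 65.4, 74.6 and 41.5 CPM on smooth topography. The controls had 28.2, 26.2 and 24.6 CPM on fractal topography, against 44.5, 48.2 and 48.0 CPM on smooth topography. The fractal libraries lay below all smooth libraries in each of the 3 conditions, by a narrow margin with THP-1.

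With THP-1, IL1B rose by 2.36 ± 0.17 on the log2 scale on fractal topography (adjusted p = 6.36e-10, and 2.48 without the pair) and by 1.74 ± 0.16 on smooth topography (adjusted p = 7.52e-08). The interaction was 0.62 ± 0.23 and missed the threshold (adjusted p = 0.0814), but it passed without the libraries that stood apart (0.74, adjusted p = 0.0166), in a fit to the 4 groups alone (0.62, adjusted p = 0.00659), with DESeq2 (0.64, adjusted p = 0.0345) and with no filter on low counts (0.61, adjusted p = 0.000947). Cytokines gave -0.24 ± 0.17 on fractal topography (adjusted p = 0.347) and 0.37 ± 0.16 on smooth topography (adjusted p = 0.109). The smooth response was 0.18 without the pair (adjusted p = 0.405) and 0.19 without smooth cytokines replicate 2 alone (adjusted p = 0.459), whereas it passed without smooth cytokines replicate 3 (0.56, adjusted p = 0.00171) and with no filter (0.35, adjusted p = 0.00722). Between surfaces IL1B fell to 22.3 ± 3.7 CPM in the fractal cytokines libraries, against 60.5 ± 17 CPM in the smooth cytokines libraries, a log2 fold change of -1.44 ± 0.17 (adjusted p = 1.39e-05) that was -1.26 ± 0.16 without the pair (adjusted p = 0.000105). In the controls it fell by 0.83 ± 0.17 on the log2 scale (adjusted p = 0.0107). That call was lost without smooth control replicate 2 (adjusted p = 0.0559) or 3 (0.0507) or fractal control replicate 2 (0.0616) or 3 (0.0731). The cytokine interaction of IL1B (-0.61 ± 0.24, adjusted p = 0.235) passed without smooth cytokines replicate 3 (-0.84, adjusted p = 0.00695) and with no filter (-0.63, adjusted p = 0.00349). It did not pass without the pair (-0.43, adjusted p = 0.293), with DESeq2 (adjusted p = 0.126) or in a fit to the 4 groups alone (adjusted p = 0.264). With THP-1 the difference between surfaces was -0.21 (95% interval -0.55 to 0.12, adjusted p = 0.383), and -0.09 without the pair.

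IL1A, whose gene lies beside IL1B, fell with cytokines on both surfaces and was lower on fractal than on smooth topography with THP-1. IL1A (ENSG00000115008) lies on chromosome 2, 112773915 to 112784590, minus strand. It had 37.3, 44.9 and 23.1 CPM in the fractal THP-1 libraries, against 57.1, 65.0 and 55.4 CPM in the smooth THP-1 libraries. With cytokines it had 28.9, 23.1 and 33.8 CPM on fractal topography, against 35.2, 62.8 and 31.0 CPM on smooth topography, where the high value belongs to smooth cytokines replicate 2. In the controls it had 54.3, 53.1 and 52.2 CPM on fractal topography, against 87.8, 81.6 and 82.9 CPM on smooth topography. All treated libraries were below all control libraries of their surface, and the fractal and smooth libraries did not overlap in the controls or with THP-1.

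With cytokines IL1A fell by 0.90 ± 0.24 on the log2 scale on fractal topography (adjusted p = 0.0122) and by 0.97 ± 0.24 on smooth topography (adjusted p = 0.0061). The smooth fall was 1.35 ± 0.11 without the pair (log2 fold change -1.35, adjusted p = 1.58e-13) and missed the threshold in a fit to the 6 libraries alone (adjusted p = 0.0594). The fractal fall missed it without fractal cytokines replicate 2 (adjusted p = 0.0515). With THP-1 the values were -0.59 ± 0.24 on fractal topography (adjusted p = 0.0517) and -0.51 ± 0.23 on smooth topography (adjusted p = 0.106), and without the pair both passed (-0.38, adjusted p = 0.002, and -0.51, adjusted p = 7.43e-06). Between surfaces, IL1A fell with THP-1 by 0.74 ± 0.24 (adjusted p = 0.0394). That call was lost without any 1 of smooth THP-1 replicates 1, 2 and 3 or fractal THP-1 replicates 1 and 3 (adjusted p from 0.0642 to 0.162), with no filter (0.136) and in a fit to the 6 libraries alone (0.0588), and it was -0.53 without the pair (adjusted p = 0.000113). The controls gave -0.66 ± 0.23 (adjusted p = 0.22), which passed in a fit to the 6 control libraries (-0.66, adjusted p = 3.74e-20) and without the pair (-0.66, adjusted p = 1.38e-06). Under cytokines the difference was -0.59 ± 0.24 (adjusted p = 0.27), and -0.21 without the pair (adjusted p = 0.275). Neither interaction passed (0.07 ± 0.34 with cytokines and -0.08 ± 0.33 with THP-1, adjusted p = 0.965 and 0.92). Without the pair the interaction with cytokines passed (0.45 ± 0.14, adjusted p = 0.0369) and that with THP-1 did not (0.13, adjusted p = 0.551).

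**Figure D2:**
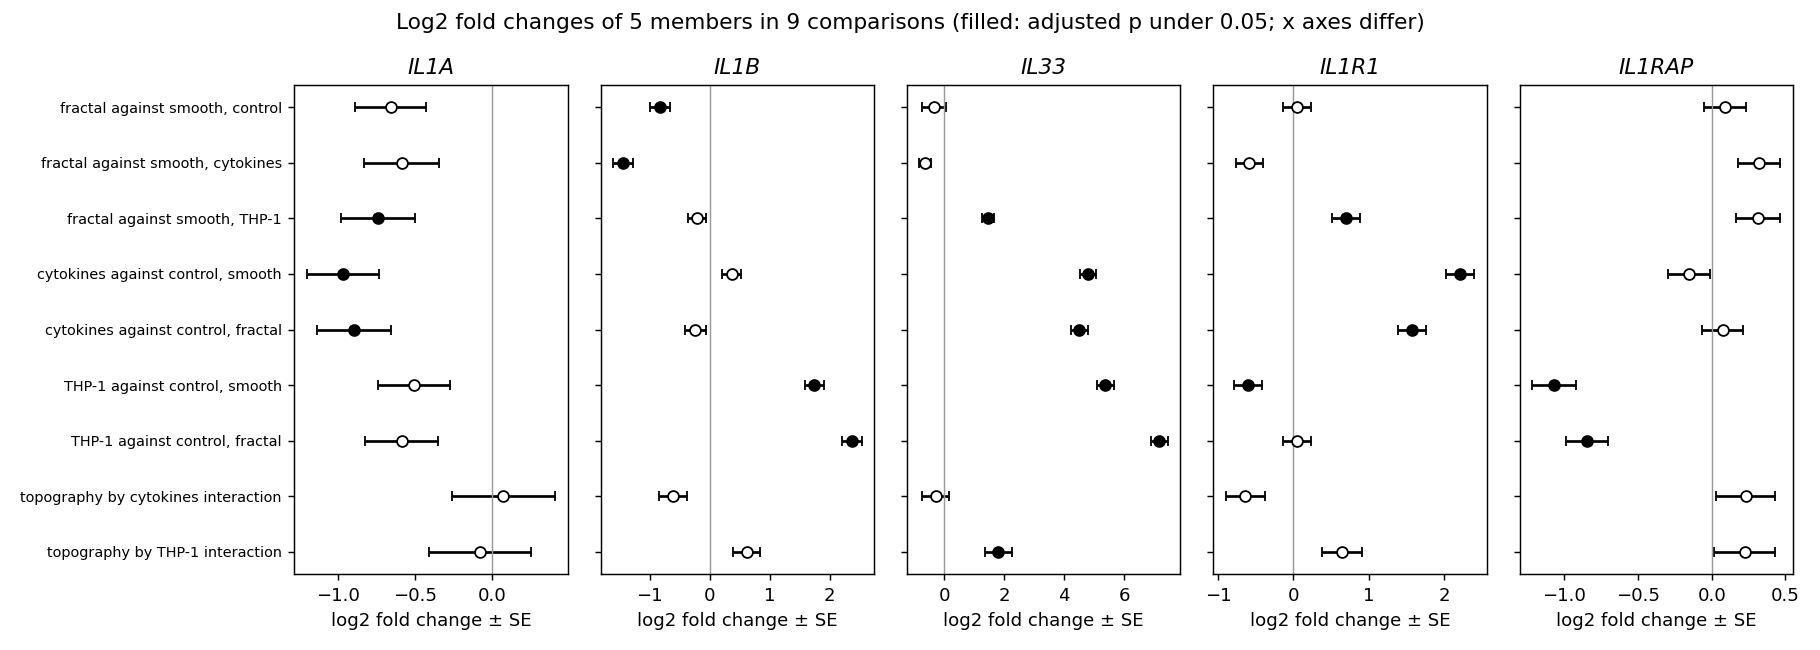
Log2 fold changes ± SE (x axes, which differ between panels) of IL1A, IL1B, IL33, IL1R1 and IL1RAP in the 9 comparisons (rows); filled points passed an adjusted p of 0.05 by edgeR. IL33 rose in all 4 comparisons with control, and IL1RAP fell in both THP-1 comparisons with control.

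Per length of annotated exon, the leading ligand differed between conditions. In CPM per kilobase, the fractal THP-1 libraries had 77.9 ± 16 for IL33, 43.8 ± 7.1 for IL1B and 16.5 ± 5.2 for IL1A. The smooth THP-1 libraries had 50.8 ± 0.90 for IL1B, with IL33 at 28.5 ± 0.94 and IL1A at 27.9 ± 2.4, which do not differ beyond their spread. In the smooth cytokines libraries the 3 ligands stood at 19.0 to 20.3 CPM per kilobase, again within their spread. The fractal cytokines libraries had 13.5 ± 2.5 for IL1A and 12.2 ± 0.83 for IL33, also within their spread, and 7.20 ± 1.2 for IL1B. The fractal controls had 25 ± 0.51 for IL1A, 8.51 ± 0.58 for IL1B and 0.54 ± 0.14 for IL33, and the smooth controls had 39.6 ± 1.5, 15.1 ± 0.67 and 0.68 ± 0.14 in the same order. By this measure IL1A was thus the highest of these ligands in the controls, and IL33 or IL1B with macrophages. The exon lengths join all annotated transcripts of a gene, so the order between genes depends on which transcripts are made, which was not tested.

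**Figure D3:**
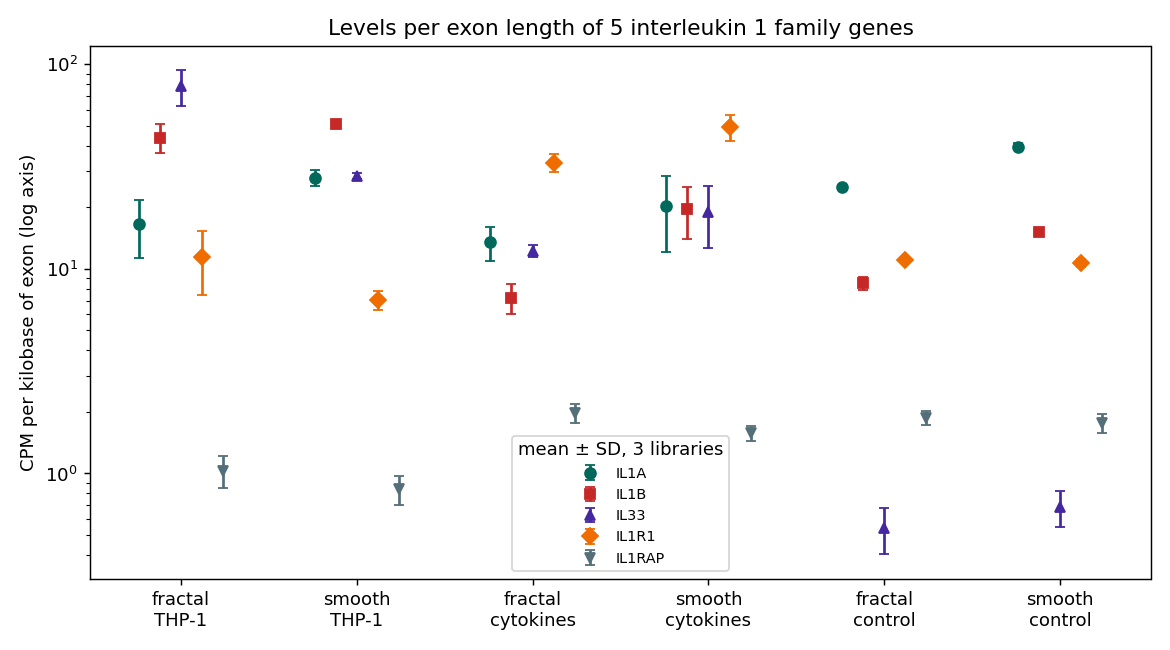
CPM per kilobase of annotated exon (y axis, log scale) of 5 genes in the 6 groups; symbols are means and bars the SD of 3 libraries. IL33 is the highest of the 5 genes in the fractal THP-1 libraries and the lowest in both controls, and IL1R1 lies above all ligands in both cytokine groups.

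IL18 was close to absent. IL18 (ENSG00000150782, chromosome 11, 112143251 to 112164117, minus strand) had 13 counts over all 18 libraries and never more than 3 in one. The fractal THP-1, fractal cytokines and smooth cytokines groups had none, which allows up to 0.0655, 0.0638 and 0.0583 CPM (a floor of 3 counts over the group, counting error only). It was not tested.

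IL1RN, the gene of the receptor antagonist, was seen almost only in the macrophage groups. IL1RN (ENSG00000136689) lies on chromosome 2, 113107214 to 113134016, plus strand. The fractal THP-1 libraries held 9, 22 and 5 counts, against 12, 15 and 19 counts in the smooth THP-1 libraries. The fractal cytokines group held 1 count, the fractal control group 3, and the smooth cytokines and smooth control groups 0. The THP-1 libraries did not overlap with the others, and since they alone carried IL1RN past the filter, that difference was fixed by its passing. The adjusted p-values of IL1RN against control are therefore no support for that difference. With THP-1, IL1RN was 14.6-fold higher than in control on fractal topography (36 against 3 counts, 95% counting interval 4.63 to 74.3, adjusted p = 0.0052, and 0.00156 without the pair) and at least 14.4-fold higher on smooth topography against the floor of 3 counts over the control group (adjusted p = 0.000814). All 3 counts of the fractal controls lay in replicate 3, so without that library the fractal control group is at 0 and the ratio of 14.6 no longer applies. Between surfaces its THP-1 level did not pass (36 against 46 counts, ratio 0.877, 95% counting interval 0.551 to 1.39, adjusted p = 0.869). At 0.75 ± 0.48 CPM on fractal and 0.90 ± 0.23 CPM on smooth topography, IL1RN per kilobase of exon (0.23 ± 0.15 and 0.28 ± 0.07 CPM) was far below IL1B.

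Marker genes of other cell types moved with the THP-1 groups. The summed level of 18 monocyte and macrophage markers ran from 21.2 to 22.3 CPM in the fractal THP-1 libraries and from 39.6 to 44.1 CPM in the smooth THP-1 libraries. It ran from 2.42 to 3.62 CPM with fractal cytokines, 5.07 to 5.67 CPM with smooth cytokines, 2.07 to 3.43 CPM in fractal controls and 2.35 to 3.05 CPM in smooth controls. Of the 18 markers, 16 had counts in each THP-1 group, against 9 in fractal cytokines, 8 in smooth cytokines, 11 in fractal controls and 9 in smooth controls. TYROBP, a signalling adaptor of myeloid cells, had 204 counts, all in the THP-1 libraries: 14, 15 and 15 on fractal topography, against 45, 55 and 60 on smooth topography. The lysozyme gene LYZ and CD68, both known as abundant in macrophages, had 4 and 3 counts over the 6 THP-1 libraries, and MRC1 and CD86 had 0. All 10 markers that passed the filter rose with THP-1, beside 25.0% of all genes on fractal and 17.3% on smooth topography. TYROBP passed only through the THP-1 libraries, and PTPRC, CYBB and SPI1 had no counts in some other groups. Rises of markers that passed this way were built in, so the count of 10 is no independent support. With THP-1, 4 markers were lower on fractal than on smooth topography (3 without the pair), beside 11.7% of all genes. Without added macrophages, the cytokine groups also showed calls: FCER1G rose on fractal topography and CD14 on smooth topography, and CD14 and ITGAX were lower on fractal than on smooth topography under cytokines.

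The summed level of 5 endothelial markers was 17.3 ± 3.4 CPM in fractal THP-1 and 9.76 ± 2.0 CPM in fractal controls, and 24.0 ± 0.69 CPM in smooth THP-1 and 10.9 ± 0.96 CPM in smooth controls. Of these, PECAM1, which myeloid cells also express, rose with THP-1 on both surfaces (5.0 ± 0.41 on fractal and 3.75 ± 0.42 on smooth topography). The other endothelial genes tested were not uniform with THP-1: KDR fell on fractal topography (-1.89 ± 0.36, adjusted p = 9e-05) and CDH5 rose on smooth topography (0.95 ± 0.24, adjusted p = 0.00257). The rise of PECAM1 was not particular to the THP-1 groups. With cytokines and no macrophages it rose by 2.79 ± 0.44 on fractal and 3.07 ± 0.44 on smooth topography. KDR also rose with cytokines (0.83 ± 0.29 and 1.88 ± 0.29), whereas CDH5 fell (-2.65 ± 0.31 and -1.74 ± 0.27) and VWF was not called. The sum of 3 mesangial markers was 13.2 ± 2.2 CPM in fractal THP-1 and 23.8 ± 1.9 CPM in fractal controls, and 10.1 ± 0.82 CPM in smooth THP-1 and 15.7 ± 1.6 CPM in smooth controls, with ITGA8 at 0 in every group.

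IL33 was higher on fractal topography with THP-1, where the macrophage and endothelial marker sums were lower and the mesangial sum higher, while IL1B differed little between surfaces. The endothelial genes did not move together there. PECAM1 was higher on fractal than on smooth topography (1.21 ± 0.30, edgeR, adjusted p = 0.00511), whereas CDH5 and KDR were lower (-1.47 ± 0.24 and -1.75 ± 0.36) and VWF was not called. Of the mesangial genes only PDGFRB was tested (0.40 ± 0.14, adjusted p = 0.0398). In these bulk samples fewer cells of a type and less RNA per cell cannot be told apart. The part of RNA from other cells in the THP-1 groups was not tested, for IL1B, IL33 and IL1RN or for any other gene named here.

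**Figure D4:**
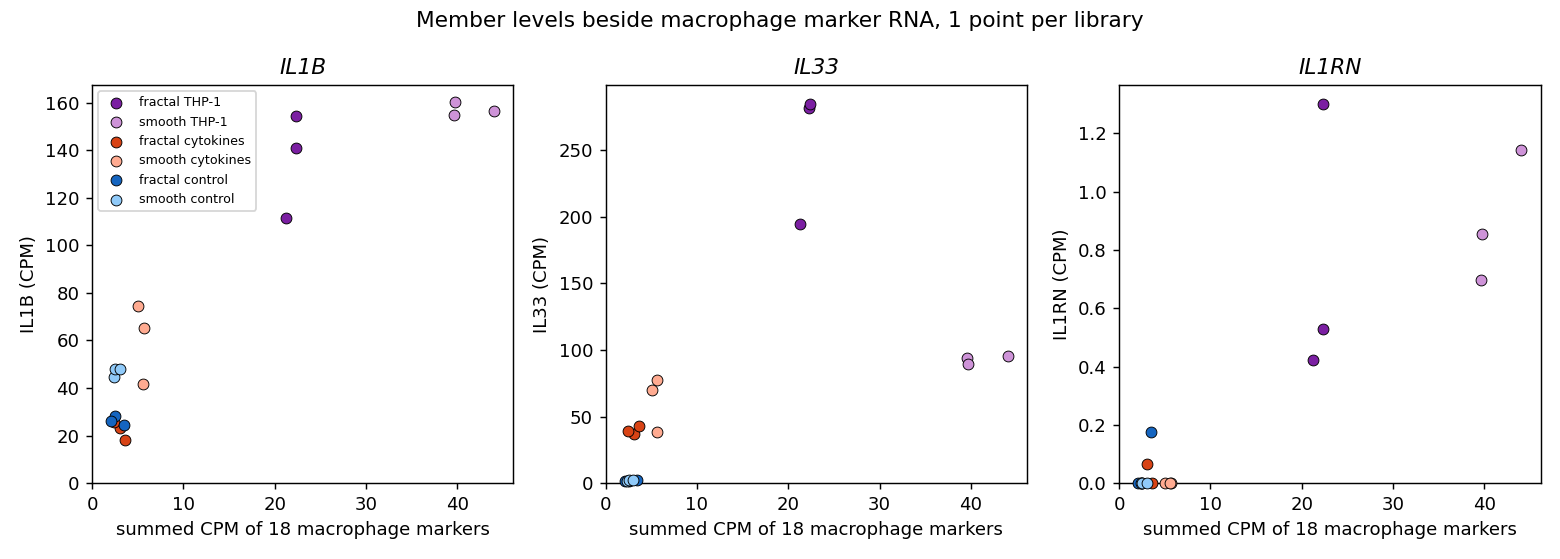
CPM of IL1B, IL33 and IL1RN (y axes) against the summed CPM of 18 macrophage markers (x axis), 1 point per library coloured by group. The fractal THP-1 libraries, at 21.2 to 22.3 CPM of markers, have the highest IL33, and the smooth THP-1 libraries, at 39.6 to 44.1 CPM, have IL33 of 89.4 to 95.3 CPM.

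The signalling receptor IL1R1 rose with cytokines on both surfaces. IL1R1 (ENSG00000115594) lies on chromosome 2, 102064544 to 102179874, plus strand. With cytokines it had 209, 240 and 254 CPM on fractal topography, against 394, 295 and 364 CPM on smooth topography. The fractal THP-1 libraries had 95.4, 98.3 and 48.5 CPM, where the low value belongs to replicate 3, against 56.0, 48.9 and 45.1 CPM in the smooth THP-1 libraries. The controls had 80.3, 78.0 and 77.5 CPM on fractal topography, against 78.7, 76.2 and 72.2 CPM on smooth topography. The cytokine libraries lay above all others, the smooth above the fractal ones, and the smooth THP-1 libraries lay below all controls.

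With cytokines IL1R1 rose by 1.57 ± 0.19 on the log2 scale on fractal topography (adjusted p = 7.07e-06) and by 2.21 ± 0.19 on smooth topography (adjusted p = 1.48e-07, and 2.32 without the pair). The interaction (-0.64 ± 0.26) did not pass (adjusted p = 0.271), nor did the difference between surfaces under cytokines (-0.58 ± 0.18, adjusted p = 0.0892). Without the pair of libraries that stood apart both passed (-0.75 ± 0.10, adjusted p = 2.84e-07, and -0.69 ± 0.07, adjusted p = 1.72e-10), as they did in fits to the compared groups alone (adjusted p = 0.00112 and 0.000529). With THP-1, IL1R1 gave 0.05 ± 0.19 on fractal topography (adjusted p = 0.859) and fell on smooth topography (-0.60 ± 0.19, adjusted p = 0.0207). The smooth fall was lost without smooth control replicate 1 or 2 or smooth THP-1 replicate 2 or 3 (adjusted p from 0.0505 to 0.0773) and with no filter (0.0977), and held without the pair (-0.60, adjusted p = 1.2e-09). Between surfaces with THP-1 it was higher on fractal (0.70 ± 0.19, adjusted p = 0.0146), although the groups overlapped. That call was lost without smooth THP-1 replicates 2 or 3 or fractal THP-1 replicates 1 or 2 (adjusted p from 0.0531 to 0.0723), in a fit to the 6 libraries alone (0.0986) and with no filter (0.068). Without the pair it was 0.95 ± 0.08 (adjusted p = 8.24e-14), the interaction passed (0.90 ± 0.10, adjusted p = 3.27e-09, against 0.64 ± 0.26 and 0.128 with all libraries) and the fractal response passed too (0.29 ± 0.08, adjusted p = 0.000993).

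The accessory chain IL1RAP, shared by the interleukin 1 and interleukin 33 receptors, fell with THP-1 on both surfaces and did not pass the test with cytokines on either. IL1RAP (ENSG00000196083) lies on chromosome 3, 190514051 to 190659750, plus strand, and shares 535 bases of its exons with the non-coding gene AC108747.1 on the same strand. It had 12.6, 13.6 and 9.61 CPM in the fractal THP-1 libraries and 22.1, 22.9 and 19.8 CPM in the fractal controls. It had 10.7, 7.92 and 10.4 CPM in the smooth THP-1 libraries and 19.2, 18.9 and 22.8 CPM in the smooth controls. No THP-1 library reached a control library. The log2 fold changes were -0.85 ± 0.15 on fractal topography (adjusted p = 2.77e-05) and -1.07 ± 0.15 on smooth topography (adjusted p = 2.85e-06), and -0.73 and -1.07 without the pair. With cytokines it had 23.6, 20.0 and 24.7 CPM on fractal topography, against 19.5, 16.5 and 18.6 CPM on smooth topography, groups that did not overlap (0.32 ± 0.14, adjusted p = 0.285, and 0.26 without the pair). Those responses were 0.08 (95% interval -0.23 to 0.38, adjusted p = 0.75) and -0.16 (95% interval -0.46 to 0.15, adjusted p = 0.473, and -0.09 without the pair). Between surfaces it did not pass with THP-1 (0.32 ± 0.15, adjusted p = 0.154), but did without the pair (0.44 ± 0.14, adjusted p = 0.0187) and without fractal THP-1 replicate 3 alone (0.44, adjusted p = 0.0249). IL1R1 per kilobase of exon stood above IL1RAP in every group, at 33.0 ± 3.3 against 1.97 ± 0.21 CPM with fractal cytokines and at 49.5 ± 7.1 against 1.58 ± 0.13 CPM with smooth cytokines. The exon length used for IL1RAP, 11558 bases, joins all annotated transcripts, which lowers its value per kilobase if a shorter form is the one made.

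IL1RL1, which encodes the interleukin 33 receptor, was rare. IL1RL1 (ENSG00000115602) lies on chromosome 2, 102311502 to 102352037, plus strand, and shares 95 exon bases with IL18R1. The fractal cytokines libraries held 7, 0 and 5 counts and the fractal controls 2, 2 and 1. The smooth cytokines libraries held 8, 19 and 15 counts and the smooth controls 1, 1 and 0. With THP-1 there were 4, 0 and 4 counts on fractal topography, against 2, 11 and 1 on smooth topography. The smooth cytokines libraries were above all smooth controls, at a ratio of 19.7 (42 against 2 counts, 95% counting interval 5.11 to 168, adjusted p = 0.0098). That call missed the threshold without smooth control replicate 3 (adjusted p = 0.0558) and held without the pair (0.0135). Since mainly the smooth cytokines libraries carried IL1RL1 past the filter, this difference was built into its passing. These adjusted p-values are therefore no support for it. On fractal topography the ratio was 2.85 (12 against 5 counts, counting interval 0.936 to 10.3, adjusted p = 0.38), and the interaction did not pass (adjusted p = 0.586). IL33 was thus at 39.7 ± 2.7 and 61.8 ± 21 CPM with cytokines on fractal and smooth topography while IL1RL1 was at 0.26 ± 0.24 and 0.81 ± 0.32 CPM.

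Counted over IL1A, IL1B, IL33, IL1R1 and IL1RAP, which had counts in every library, cytokines against control gave 2 higher (IL33, IL1R1) and 1 lower (IL1A) on each surface. On fractal topography 13% of all genes were higher and 12.9% lower (25.8% in either direction), and on smooth topography 13.2% and 12.4% (25.7%). THP-1 against control gave 2 higher (IL1B, IL33) and 1 lower (IL1RAP) on fractal topography, beside 25.0% and 25.5% of all genes (50.5%). On smooth topography the same 2 were higher and 2 lower (IL1R1, IL1RAP), beside 17.3% and 17.7% (35.1%). IL1RN with THP-1 and IL1RL1 with smooth cytokines are left out of these counts because those groups carried them past the filter. Fractal against smooth gave 2 higher (IL33, IL1R1) and 1 lower (IL1A) with THP-1, beside 8.25% and 11.7% of all genes (20.0%). IL1B alone was lower under cytokines, beside 2.74% of all genes lower and 1.72% higher (4.46%), and in the controls, beside 1.12% lower and 0.651% higher (1.77%). The interaction with THP-1 called IL33 as higher, beside 5.35% of all genes higher and 7.88% lower (13.2%). The interaction with cytokines called 0 of the 5, beside 1.28% of all genes higher and 1.43% lower (2.70%), with 2 at an unadjusted p under 0.05 (IL1B and IL1R1) and 0 with DESeq2. The comparisons share control libraries.

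Among 14 further ligands and receptors of the family, 4 passed the filter: IL18R1, IL18BP, SIGIRR and IL1RL2. IL18R1, a chain of the interleukin 18 receptor, stood at 5.37 ± 0.86 CPM with fractal cytokines and 0.74 ± 0.17 CPM in fractal controls. It stood at 10.6 ± 2.5 CPM with smooth cytokines and 0.72 ± 0.38 CPM in smooth controls. It rose with cytokines on fractal (2.86 ± 0.35, adjusted p = 7.7e-07) and smooth topography (3.88 ± 0.35, adjusted p = 4.96e-09), and with THP-1 on both (2.19 ± 0.36 and 1.96 ± 0.37). Under cytokines it was lower on fractal than on smooth topography (-0.98 ± 0.28, adjusted p = 0.0432). IL18RAP, its partner chain, had no more than 10 counts in any group, so 1 chain of that receptor rose while its ligand and its partner were near 0. IL18BP, the decoy of interleukin 18, fell with THP-1 on smooth topography (-0.69 ± 0.19, adjusted p = 0.00712), as did IL1RL2 from low counts (adjusted p = 0.00559). The other 10 genes, among them the decoy receptor IL1R2 and the interleukin 36 ligands, did not pass the filter.

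All 17 genes of receptor signalling were tested. With cytokines 3 rose and 1 fell on fractal topography, where 25.8% of all genes were called, and 5 rose and 5 fell on smooth topography, where 25.7% were. With THP-1 4 rose and 3 fell on fractal topography (50.5% of all genes called) and 4 rose and 4 fell on smooth topography (35.1%). The fractal counts are thus near or under the share of all genes. IRAK2, a kinase of the signalling complex, had 35.1 ± 1.7 CPM with fractal cytokines and 88.7 ± 7.9 CPM with smooth cytokines (-1.34 ± 0.09, adjusted p = 4.64e-11), and its cytokine response differed between surfaces (interaction -1.0 ± 0.12, adjusted p = 9.6e-06). IRAK3, which restrains the same pathway, had 0.59 ± 0.51 and 3.23 ± 0.32 CPM in those groups (-2.43 ± 0.58, adjusted p = 0.0108). IRAK1 fell to 65.3 ± 12 CPM with fractal THP-1, against 168 ± 6.2 CPM in fractal controls (-1.36 ± 0.10, adjusted p = 4.66e-11), and it fell less on smooth topography (-0.53 ± 0.10), with an interaction of -0.83 ± 0.14 (adjusted p = 0.000192). The adaptor MYD88 rose with THP-1 on smooth topography (0.46 ± 0.10, adjusted p = 0.000602), and its THP-1 response differed between surfaces (-0.62 ± 0.14, adjusted p = 0.00316). IRAK1 and MYD88 were the 2 genes of this list with a lower THP-1 response on fractal topography. The same interaction was higher for 4 others, beside 13.2% of all genes called in either direction, so the list moved both ways. Without the pair of libraries 4 were higher and 3 lower.

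Of 21 genes of ligand processing and release, 15 were tested. With THP-1 6 rose and 5 fell on fractal topography, beside 50.5% of all genes called, and 4 rose and 4 fell on smooth topography, beside 35.1%. With cytokines 1 rose and 5 fell on fractal topography, beside 25.8%, and 4 rose and 4 fell on smooth topography, beside 25.7%. The inflammasome sensor NLRP3 had 4.71 ± 0.93 CPM with fractal THP-1 and 9.13 ± 0.50 CPM with smooth THP-1 (-0.96 ± 0.25, adjusted p = 0.00775), and it rose over control on smooth topography (1.41 ± 0.26, adjusted p = 0.000119). How much of the NLRP3 RNA in the THP-1 groups came from macrophages was not tested. CASP1, whose protease cuts pro-interleukin 1β, rose with cytokines on smooth topography (1.01 ± 0.34, adjusted p = 0.0274), where it reached 3.71 ± 0.54 CPM against 1.84 ± 0.30 CPM in smooth controls. NEK7, a partner of NLRP3, fell in all 4 comparisons with control, by 0.52 to 1.03 on the log2 scale. CASP4 rose with cytokines (0.57 ± 0.12) and THP-1 (0.62 ± 0.12) on fractal topography.

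Genes that interleukin 1 is known to induce, many of them also induced by TNF-α, which was part of the cytokine treatment, were tested in 17 of 18 cases. Under cytokines 13 were lower on fractal than on smooth topography and 0 higher, with a median log2 difference of -1.31 beside 0.00 over all genes, of which 2.74% were lower. Without the pair of libraries 14 were lower and 0 higher, where 9.42% of all genes were called in either direction. CXCL1, a neutrophil chemokine gene, had 433 ± 44 CPM with fractal cytokines and 1662 ± 183 CPM with smooth cytokines (-1.94 ± 0.09, adjusted p = 1.01e-13). ICAM1, a leukocyte adhesion molecule, had 23.5 ± 1.6 CPM and 81.6 ± 6.5 CPM in those groups (-1.79 ± 0.09, adjusted p = 5.38e-13). Their response to cytokines differed between surfaces in 11 cases, all lower on fractal topography (median -1.06, beside 0.01), where 1.43% of all genes were called lower. With THP-1 the pattern was mixed: 7 were higher and 4 lower on fractal than on smooth topography (median 0.15, beside 0.00), where 20.0% of all genes were called. CXCL1 stood at 547 ± 45 CPM with fractal THP-1 and 260 ± 10 CPM with smooth THP-1 (1.07 ± 0.09, adjusted p = 1.4e-09), and ICAM1 was lower on fractal topography (-0.62 ± 0.09, adjusted p = 7.56e-06). Against control, 9 rose and 3 fell with cytokines on fractal topography (25.8% of all genes called) and 15 rose and 2 fell on smooth topography (25.7%). With THP-1 10 rose and 2 fell on fractal topography (50.5%) and 8 rose and 2 fell on smooth topography (35.1%). In the controls 2 were higher and 3 lower on fractal topography (1.77%). None of the calls named here for genes of the 4 lists was lost without the pair of libraries.

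**Figure D5:**
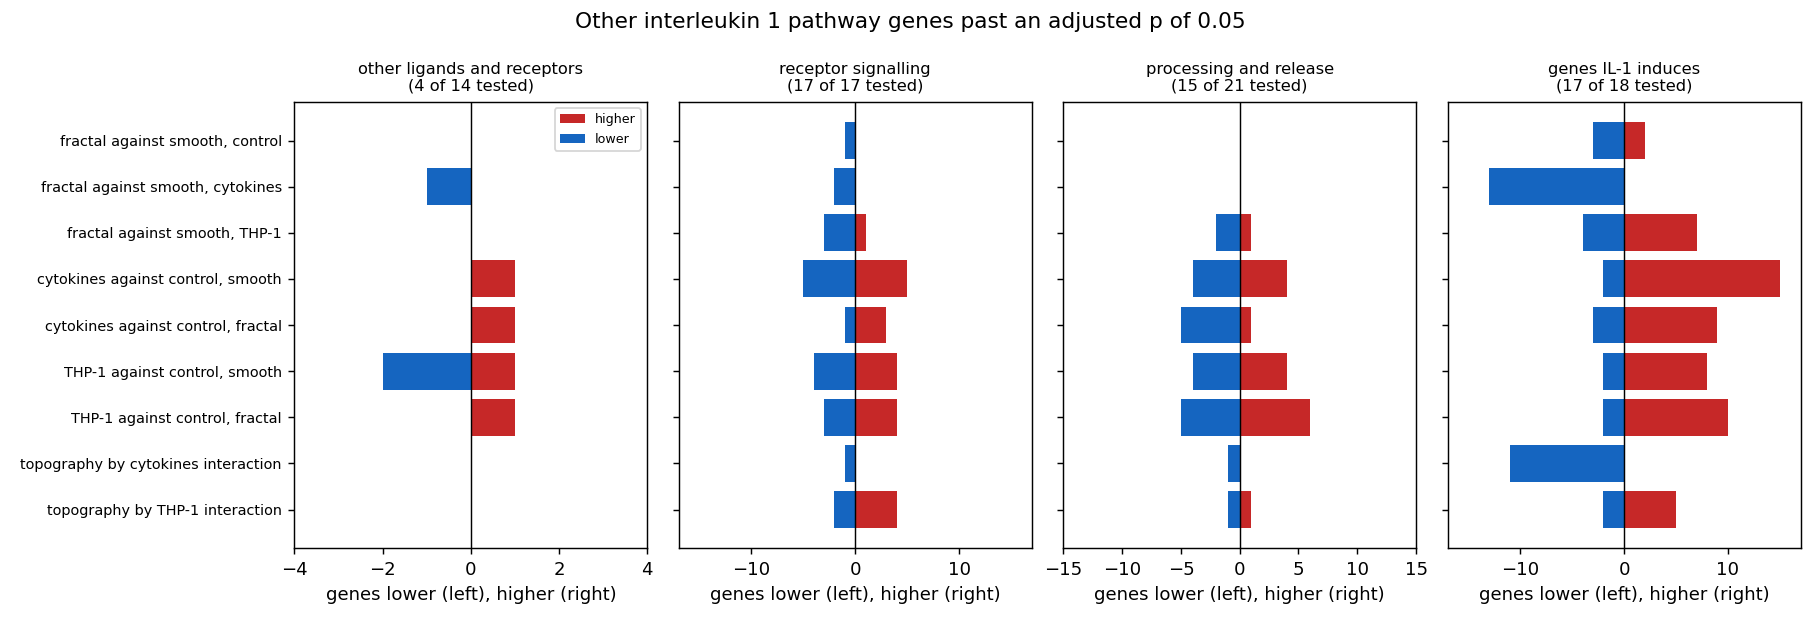
Number of tested genes of 4 lists (panels) called higher (right) or lower (left) in the 9 comparisons (rows) by edgeR at an adjusted p of 0.05; x axes span the number tested. The genes interleukin 1 induces show 13 lower and 0 higher for fractal against smooth under cytokines.

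Profiles over the 18 libraries were compared by the root mean square difference of centred log2 CPM, where a smaller value means more alike. The protein-coding genes closest to IL33, whose own profile spread over 2.68 by this measure, were SHH (0.509), BDKRB2 (0.671) and CXCR4 (0.878). SHH, a morphogen gene, had 73.3 ± 12 CPM in fractal THP-1 and 33.9 ± 2.3 CPM in smooth THP-1. For IL1R1 (own spread 1.03) they were PTGFR, PID1 and IL21R (0.343 to 0.427). For IL1B (1.08) they were SLCO4A1, CLGN and FEZ1 (0.338 to 0.412), and for IL1A (0.586) PLAT, RMI2 and FRMD5 (0.275 to 0.281). For IL1RAP (0.487) they were RHOBTB3, OSMR and CDK14 (0.153 to 0.174). IL1RN and IL1RL1, with 86 and 83 counts in all, are too sparse for their nearest profiles to be read (CD300A at 0.487 and SLC25A18 at 0.717).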

How the data were processed

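Per the labels' protocols, poly-T selection preceded unstranded library preparation and paired sequencing of 150 bases, so a gene and an overlapping antisense gene cannot be told apart. The submitters' processing notes list HISAT2 2.0.5, featureCounts 1.5.0-p3, CASAVA and GRCh38. The annotation is not given in the sources used here. The deposited table holds raw counts, not normalized, with 1 column per library.

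Positions and exon lengths came from GENCODE 29 by Ensembl identifier, which held all 58735 genes. edgeR 4.0.16 in R 4.3.3 used TMM scaling, filterByExpr (min.count 10, min.total.count 15), 1 mean per group over 18 libraries and robust quasi-likelihood F-tests, adjusted within each of 9 comparisons. An SE is the log2 fold change, without its sign, over the square root of F, and intervals span 2.18 SE either side. Counting intervals are exact and cover counting error only. Each test was tried on simulated data. Alternatives included DESeq2 1.42.0, RLE scaling, other filters, the compared groups alone, the replicate number as a block and leaving out libraries.

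The members, lists and the pair of libraries left out were chosen with earlier results of these data known. Named genes are all members, up to 3 called genes of a list per direction by adjusted p (fewer in places), and the 3 nearest profiles. Promoters are from RefSeq. Figures used matplotlib 3.10.9.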

Additional observations from a re-analysis of the deposited data

Results flagged for a closer look

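The response of IL33 to THP-1 macrophages differed between surfaces by the interaction test: 1.80 ± 0.45 on the log2 scale, larger on fractal than on smooth topography (edgeR, adjusted p = 0.0126). All 3 fractal THP-1 libraries were above all 3 smooth THP-1 libraries, and the control levels under both rest on 26 to 39 counts per fractal library and 30 to 46 counts per smooth library.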

How the results depend on the processing

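Of 800 recomputed fold changes of the members, 730 kept their direction and side of the threshold, 27 fell short of it, 31 came to pass it and 12 changed sign, none of these past the threshold in either fit. RLE scaling changed no call. The cause of the changes was not tested. The counts of members called in this section cover all 7 members tested. Unlike the counts in the Results, they include IL1RL1 with smooth cytokines and IL1RN with THP-1, whose calls were built in by the filter. With all libraries, 1.77%, 4.46%, 20.0%, 25.7%, 25.8%, 35.1%, 50.5%, 2.70% and 13.2% of all genes were called, in the order of the plot of fold changes. Members called numbered 1 for fractal against smooth in the controls (2 in the compared groups alone, 2 without the pair that stood apart, 0 to 1 leaving out 1 library) and 1 under cytokines (2 in the compared groups alone, without the pair and with DESeq2, 1 to 2 leaving out 1 library). They numbered 3 with THP-1 (1 with no filter and in the compared groups alone, 4 without the pair, 1 to 3 leaving out 1 library) and 4 for cytokines against control on smooth topography (2 in the compared groups alone, 3 to 5 leaving out 1 library). Leaving out 1 library gave 2 to 3 for cytokines against control on fractal topography, and 4 to 5 for THP-1 against control on both surfaces (4 on fractal and 5 on smooth topography with all libraries, 6 on each without the pair and 6 on smooth topography in the compared groups alone). The interaction with cytokines gave 0 (1 with no filter, 1 in the compared groups alone, 2 without the pair, 0 to 1 leaving out 1 library) and that with THP-1 gave 1 (2 in the compared groups alone, 3 without the pair and with DESeq2, 0 to 2 leaving out 1 library).

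The sign changes were small or rested on few counts. Without the pair, IL1RN with THP-1 between surfaces was 0.023 and the IL1A interaction with THP-1 0.13, and leaving out 1 library they ran from -0.90 to 0.023 and from -0.30 to 0.13, both highest without fractal THP-1 replicate 3. IL1RL1 with THP-1 between surfaces ran from -1.15 to 0.96, with 0.96 without smooth THP-1 replicate 2 and 0.05 without fractal THP-1 replicate 2. The IL1RAP response to cytokines on fractal topography ran from -0.024, without fractal cytokines replicate 3, to 0.12. The IL1R1 response to THP-1 on fractal topography was -0.10 and -0.13 without fractal THP-1 replicates 1 and 2 and 0.29 without replicate 3. The IL1A interaction with cytokines was -0.08, -0.14 and -0.08 without smooth cytokines replicates 1 and 3 and fractal cytokines replicate 3, up to 0.45 leaving out 1 library, and 0.45 (adjusted p = 0.0369) without the pair.

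Over all genes, the comparison of controls called 286 (2755 in the 6 libraries alone, 1188 without the pair, 509 with DESeq2, 131 to 150 leaving out 1 library). Fractal against smooth called 719 under cytokines (1561 without the pair) and 3220 with THP-1 (1412 in the 6 libraries alone). The interactions called 436 with cytokines (983 in the 4 groups alone, 1461 without the pair, 688 with DESeq2, 271 to 532 leaving out 1 library) and 2134 with THP-1 (3642 without the pair, up to 3266 leaving out 1 library).

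For the named genes and counts of the pathway lists, leaving out the pair was chosen after seeing the data. It moved the genes interleukin 1 induces called in the controls to 10 (2 higher and 8 lower), beside 7.17% of all genes. With all libraries 5 were called (2 higher and 3 lower), beside 1.77% of all genes.

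Libraries of the same replicate number were hardly alike: their deviations from their group means correlated at -0.07 to 0.06 over 45 pairs. The median was 0.009, against -0.004 for other pairs, and for 9 of 18 libraries the closest library of another group had the same number. Whether same-numbered libraries shared a batch was not tested. With the replicate number as a block the members called were 1, 1, 3, 4, 3, 5, 5, 0 and 1 in the order of the comparisons in the plot of fold changes, and 1 fold change came to pass, IL1A with THP-1 on fractal topography (-0.61, adjusted p = 0.0371). IL18, IL1RN and IL1RL1 are limited by depth, with at most 3, 22 and 19 counts in a library.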
